A study of Mus musculus with 70 samples.

Results

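Ly6C-high and Ly6C-low monocytes of unstressed mice were compared across all genes in 10 of the 70 libraries of the series, 6 of Ly6C-high and 4 of Ly6C-low cells. The libraries were chosen by their labels (condition CON, cell type Ly6high or Ly6low) and by no measured value. The series covers sorted blood leukocytes of CON mice and of mice that were susceptible (SUS) or resilient (RES) after chronic social defeat stress. All 10 libraries came from CON mice, young adult males of the inbred strain C57BL/6J with no engineered allele and no defeat, which were housed in pairs across a partition during the days of defeat and singly after them. Both cell types were sorted from trunk blood after red cell lysis as living CD11b+ cells negative for B220, CD90.2 and Ly6G, and were then divided by their staining for Ly6C. The gate held no stain for CD115, NK1.1 or CD43, so natural killer cells with CD11b and without CD90.2 were not removed by it. The labels tie no library to a mouse, so a mouse may have given a library of each kind, and the p-values treat the libraries as independent. The source field of the labels names brain, while the study's methods describe blood.

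Mouse blood holds 2 main kinds of monocyte. Classical monocytes carry much Ly6C on their surface, leave the bone marrow through the chemokine receptor CCR2 and enter inflamed tissue, where they become macrophages or dendritic-like cells. Patrolling monocytes carry little Ly6C, arise mainly from classical ones under the nuclear receptor NR4A1, crawl along the inner wall of small vessels and clear particles and damaged endothelial cells from it.

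RNA was measured as read counts per gene, and levels are given as CPM, counts relative to the TMM-scaled total of the library. In these values, 3 numbers for Ly6C-high are the lowest, the median and the highest of 6 libraries, and 4 numbers for Ly6C-low are libraries 21, 24, 29 and 32 in this order. Means are given with the SD over 6 and 4 libraries. Log2 fold changes are Ly6C-high minus Ly6C-low. A gene is said to be called where edgeR's quasi-likelihood test gave an adjusted p under 0.05 (Benjamini-Hochberg over 17678 genes) with an absolute log2 fold change above 1. The libraries had 31816523 to 41005751 counts in Ly6C-high and 27095178 to 35280211 in Ly6C-low. In bulk samples, fewer cells with a transcript and less of it per cell cannot be told apart.

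The sort criterion was met in every library, which is a check and not a finding. Ly6c2 (ENSMUSG00000022584, chromosome 15, from 75108158 to 75111970 of GRCm38), which encodes the stained surface protein, was at 273, 287 and 331 CPM in Ly6C-high and 1.31, 0.464, 0.161 and 1.16 CPM in Ly6C-low. Ccr2 (ENSMUSG00000049103, chromosome 9, from 124101950 to 124113557) was at 1674, 2304 and 2779.8 CPM and 378, 246, 344 and 250.1 CPM, in the same order (log2 fold change 2.90, SE 0.18, adjusted p = 3.18e-08). Ace (ENSMUSG00000020681, chromosome 11, from 105967945 to 105989964), which encodes angiotensin-converting enzyme, was at 249, 303 and 374 CPM and 2441, 3393, 3000.0 and 3120.2 CPM (log2 fold change -3.28, SE 0.11, adjusted p = 7.33e-13). None of these 3 markers overlapped between the groups, and every library stood on its labelled side. The sorting antigen CD11b, from Itgam, was at 279 ± 31.5 against 236 ± 26.3 CPM and was not called.

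Across all genes, 1039 of 17678 were called higher in Ly6C-high (5.88%) and 1057 higher in Ly6C-low (5.98%), 11.9% in both directions. The counts of called genes in the lists below stand against these shares. The split depended on the scaling, since unscaled library totals gave 699 and 1427 genes and moved the median log2 fold change of all genes from -0.05 to -0.26. The voom test gave 1032 and 1578. The groups did not overlap for 10.7% of genes with Ly6C-high above and for 10.2% with Ly6C-low above. Mitochondrial genes took 9.97 ± 1.25% of counts in Ly6C-high and 4.60 ± 0.75% in Ly6C-low, and the groups did not overlap (p = 0.00476 by a two-sided exact permutation test, the lowest value open to 6 against 4 libraries, and 0.00714 adjusted over 3 measures). The 100 highest genes took 31.4 ± 2.68% and 24.5 ± 3.53% of counts (exact permutation test, p = 0.0143). Genes with at least 1 CPM numbered 13807 ± 309 in Ly6C-high and 14939 ± 187 in Ly6C-low (exact permutation test, p = 0.00476). The first principal component held 66.3% of the variance and divided the cell types. Ly6C-high library 10 lay alone on the second, which held 8.60%, and without each library in turn 1902 to 2160 genes were called.

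**Figure D1:**
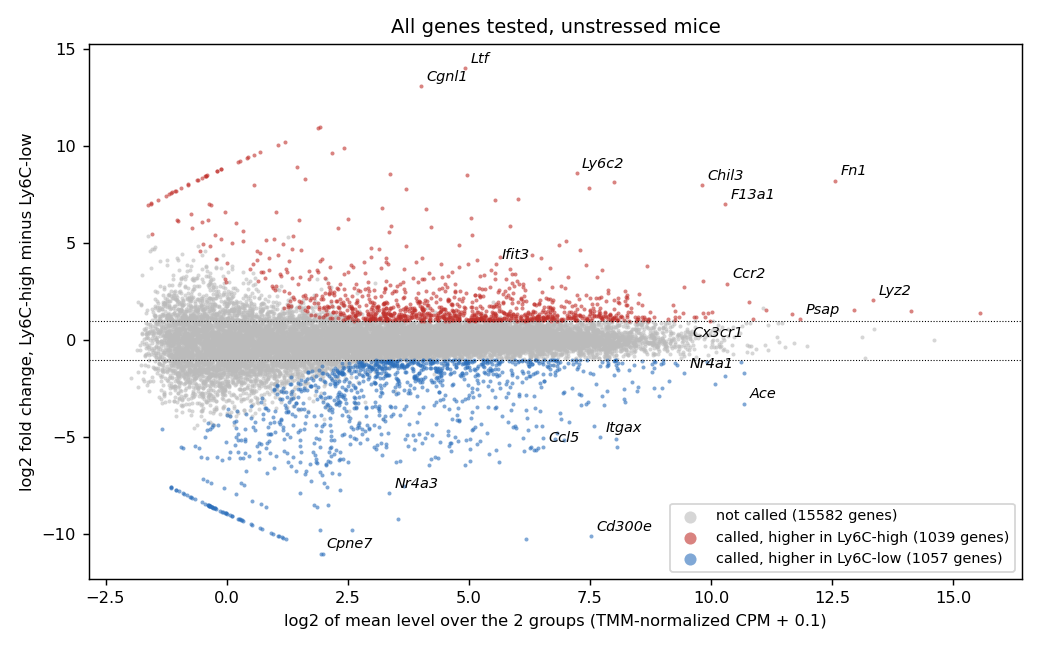
Log2 fold change (Ly6C-high minus Ly6C-low) against the log2 of the mean level over both groups (TMM-normalized CPM + 0.1) for the 17678 genes tested, with called genes in color and dotted lines at 1 and -1. Calls were near balance, 1039 higher in Ly6C-high and 1057 higher in Ly6C-low, and the straight diagonal lines at low levels are genes with 0 counts in 1 group.

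Markers of other cells stood at unequal levels, and natural killer markers stand beside every gene that was higher in Ly6C-low. All 15 of 15 natural killer cell markers were called higher in Ly6C-low, and each of them had counts in at least 1 library. Their summed level was 16.7 to 109.9 CPM in Ly6C-high and 726 to 2276 CPM in Ly6C-low, with the highest values in Ly6C-high library 7 and Ly6C-low library 24. T cell libraries of CON mice had 424 to 1338 CPM of the same list. Ncr1, the natural killer receptor NKp46, was at 0, 3.25 and 8.98 CPM and 154, 226, 70.3 and 154 CPM. With the mean log2 level of this list as a covariate over all 34 monocyte libraries, 462 of 21178 genes were called in CON mice, 267 higher in Ly6C-high (1.26%) and 195 higher in Ly6C-low (0.921%). The list and the cell type move together in every library, so what belongs to either cannot be told apart by this fit.

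The lists for other blood cells had a smaller share of their markers called. Of 14 T cell markers, 8 could be tested and 4 were called higher in Ly6C-low (Cd247, Lck, Thy1 and Tcf7). Natural killer cells also use Cd247 and Lck. DESeq2 called 8 of 11 and voom 6 of the 8, each higher in Ly6C-low. In SUS mice 7 of 8 were called on that side and in RES mice 7 of 9, against 10.5% and 10.2% of all genes. The summed levels in CON mice were 3.32 to 13.4 and 49.8 to 144 CPM, while T cell libraries of CON mice had 6426 to 7424 CPM. Of 12 B cell markers, 10 could be tested and 2 were called higher in Ly6C-low, with sums of 158 to 210.0 and 211 to 230.3 CPM. Of 10 dendritic cell markers, 7 could be tested and 3 were called higher in Ly6C-low, with sums of 146 to 183 and 119 to 317 CPM. Of 15 neutrophil markers, 11 could be tested, and 7 were called higher in Ly6C-high and 0 higher in Ly6C-low. Their log2 fold changes ran from -3.41 to 13.99, with sums of 473 to 1225 and 252 to 317 CPM. The call of Thy1, which encodes the gated CD90.2, was lost without Ly6C-high library 4 (adjusted p = 0.0591) or 13 (0.0529) or Ly6C-low library 24 (0.0713). Ly6g itself, which defines neutrophils and was gated out, was too low to test. Of 8 basophil markers, 3 could be tested and 1 was called higher in Ly6C-low, with sums of 0.111 to 6.40 and 6.29 to 31.1 CPM. The lists for platelets, red cells and eosinophils had no called gene of 8, 7 and 5 tested by edgeR, and no unadjusted p under 0.05 there. Voom called none either, nor did DESeq2 with 11, 9 and 4 tested. All 5 tested eosinophil markers were still lower in Ly6C-high (log2 fold change -3.60 to -1.71), with sums of 0.197 to 13.5 and 7.32 to 74.7 CPM. In SUS and in RES mice 3 of 3 tested eosinophil markers were called higher in Ly6C-low, against 10.5% and 10.2% of all genes. Of 14 brain cell markers, 8 could be tested, edgeR and DESeq2 called 0 and voom 1, with 2 at an unadjusted p under 0.05. Their summed level was 363 to 456 CPM in Ly6C-high and 337 to 392 CPM in Ly6C-low, and most of it was Mbp, which leukocytes also express.

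**Figure D2:**
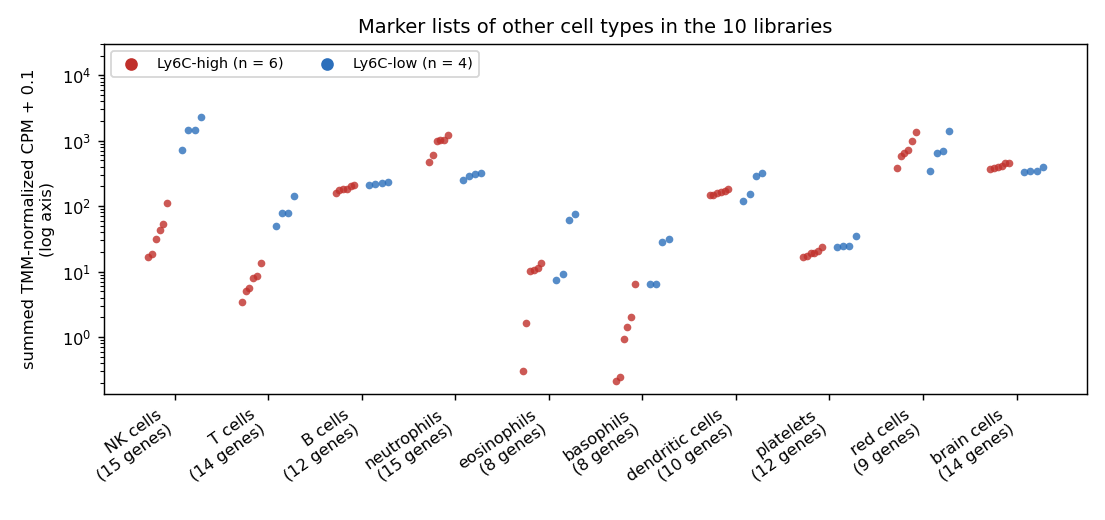
Summed CPM of each marker list of another cell type (log scale) in the 6 Ly6C-high and 4 Ly6C-low libraries of CON mice, 1 point per library. The natural killer list has no overlap, with Ly6C-high libraries up to 109.9 CPM and Ly6C-low libraries from 726 CPM.

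Genes known for classical monocytes were called almost wholly on the Ly6C-high side. Of 25 listed genes, 21 were called higher in Ly6C-high and 1 higher in Ly6C-low, with a median log2 fold change of 2.90 against -0.05 for all genes. Fn1, which encodes the matrix protein fibronectin, was at 9049.6, 11902 and 15079.5 CPM in Ly6C-high and 31.7, 39.9, 59.4 and 30.7 CPM in Ly6C-low (log2 fold change 8.21, SE 0.29, adjusted p = 5.30e-09). All 6 Ly6C-high libraries lay far above all 4 Ly6C-low libraries. F13a1, the A chain of coagulation factor XIII, was at 2215, 2499.7 and 2659.6 CPM and 28.6, 13.0, 29.6 and 6.86 CPM (log2 fold change 6.99, SE 0.50, adjusted p = 8.71e-06). Vcan, the proteoglycan versican, was at 333, 514 and 622 CPM and 0.640, 2.86, 1.00 and 2.52 CPM, and Chil3, a chitinase-like secreted protein also called Ym1, at 1073, 1661 and 2664 CPM and 12.5, 7.55, 4.74 and 3.64 CPM. The lowest Ly6C-high library exceeded the highest Ly6C-low library in all 4 genes.

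Further called members were Mmp8, the neutrophil collagenase, at 128 ± 16.4 against 0.774 ± 1.15 CPM, Cd177, a surface partner of proteinase 3, at 357 ± 37.7 against 1.51 ± 0.767 CPM, and Hp, haptoglobin, at 359.8 ± 54.2 against 37.9 ± 6.98 CPM. Il1b, the cytokine interleukin-1 beta, is on the same list and was called in the other direction, at 11.3, 17.0 and 28.1 CPM in Ly6C-high and 111, 76.7, 87.5 and 81.6 CPM in Ly6C-low (log2 fold change -2.25, SE 0.21, adjusted p = 2.82e-07). The 3 members that were not called were Ifitm6 (0.79), Clec4e (-0.53) and Sirpb1c (-0.08). With the natural killer covariate, 13 members were called, each higher in Ly6C-high. Fn1, F13a1, Vcan and Chil3 were called there too, while Ccr2 had a log2 fold change of 2.45 and an adjusted p of 0.0901.

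Genes known for patrolling monocytes were called on the Ly6C-low side. Of 25 listed genes, 24 could be tested, and 22 were called, each higher in Ly6C-low, with a median log2 fold change of -3.68. Nr4a1, the nuclear receptor on which these cells depend, was at 261, 316 and 439 CPM in Ly6C-high and 963, 1109, 1112 and 1078 CPM in Ly6C-low (log2 fold change -1.71, SE 0.11, adjusted p = 3.21e-09). Its difference was smaller than that of Cd300e, an activating receptor of the CD300 family, which was at 0.0325, 0.337 and 0.776 CPM and 307, 456, 314 and 381 CPM (log2 fold change -10.08, SE 0.42, adjusted p = 2.69e-08). Itgax, which encodes the integrin CD11c, was at 8.69, 11.4 and 18.9 CPM and 345, 473, 424 and 377 CPM (log2 fold change -5.01, SE 0.19, adjusted p = 1.23e-11). Treml4, a receptor for dead cells, was at 54.4, 58.8 and 61.6 CPM and 429.5, 598, 526 and 595 CPM, and Spn, which encodes the sialoprotein CD43, at 273, 363 and 467 CPM and 1547, 2031, 1710.0 and 1856 CPM. No Ly6C-high library reached a Ly6C-low library in these 5 genes.

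The scavenger receptor gene Cd36 (17.1 ± 7.80 against 367 ± 34.0 CPM), the fatty acid carrier gene Fabp4 (0.685 ± 1.23 against 59.3 ± 7.73 CPM) and the lipid-sensing nuclear receptor gene Pparg (5.66 ± 2.05 against 106 ± 14.0 CPM) were called in the same direction. Cx3cr1, the fractalkine receptor often used to tell these cells apart by fluorescence, was at 633, 701 and 747 CPM in Ly6C-high and 696, 888, 797 and 669.5 CPM in Ly6C-low. Its groups overlapped, and it was not called (log2 fold change -0.14, SE 0.09, adjusted p = 0.326). The other tested member without a call was Clec4a3 (-0.23). With the natural killer covariate, 17 members were called, each higher in Ly6C-low, among them Nr4a1 (-2.31), Cd300e (-10.45) and Treml4 (-2.89). Cd36 was not among them (-2.22, adjusted p = 0.216).

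**Figure D3:**
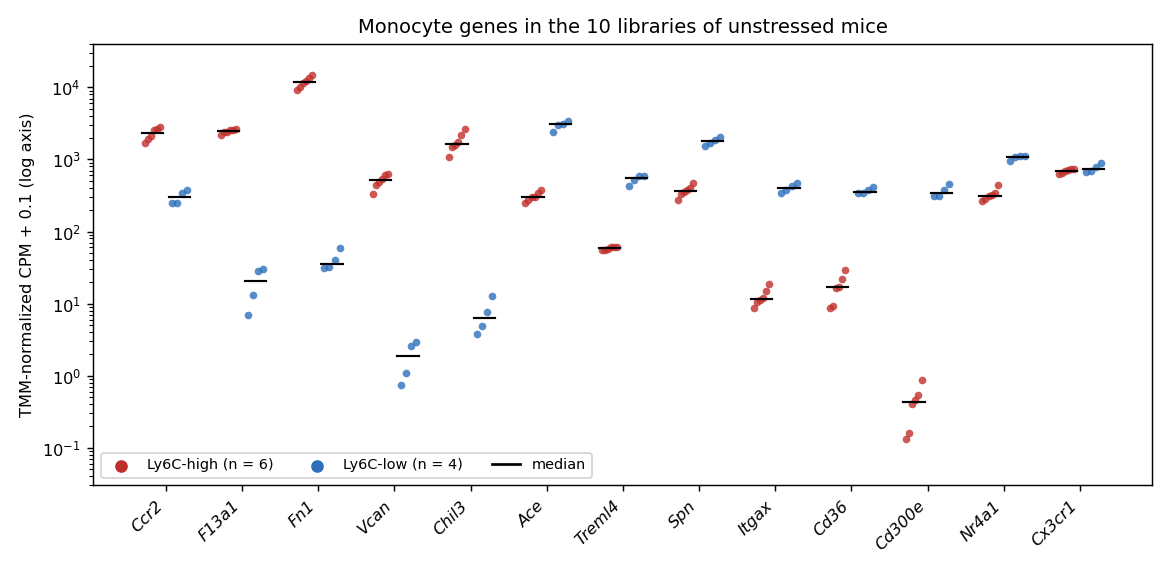
TMM-normalized CPM (log scale, plus 0.1) of monocyte genes in the 6 Ly6C-high and 4 Ly6C-low libraries of CON mice, 1 point per library with the median as a line. Ccr2, Fn1, F13a1, Vcan and Chil3 lie higher in every Ly6C-high library, Ace, Cd300e, Itgax, Treml4, Spn and Nr4a1 higher in every Ly6C-low library, and Cx3cr1 overlaps.

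Transcription factors went in both directions. Of 46 listed genes, 8 were called higher in Ly6C-high and 14 higher in Ly6C-low, and with unscaled library totals 5 and 14. The lineage factor gene Spi1, which encodes PU.1, was at 343, 434 and 493 CPM and 439.9, 416, 538 and 450.1 CPM, and its groups overlapped. Irf8, which monocyte progenitors need, was at 409.5 ± 62.1 against 322 ± 52.0 CPM and was not called (0.35, adjusted p = 0.0408). On the Ly6C-high side stood Maf (74.8 ± 20.8 against 11.1 ± 1.63 CPM), the granulocyte and monocyte factor Cebpa (137 ± 38.9 against 37.3 ± 25.6 CPM), Cebpd (76.8 ± 20.4 against 21.9 ± 5.70 CPM) and the receptor gene Notch1 (249.6 ± 49.6 against 82.8 ± 6.41 CPM). Cebpa was at 75.7 CPM in Ly6C-low library 29 and at 21.9 to 26.9 CPM in the other 3. On the Ly6C-low side stood Tcf7l2, an effector of Wnt signals (8.75 ± 4.20 against 139 ± 26.5 CPM), the repressor Bhlhe40 (16.4 ± 2.00 against 219 ± 27.6 CPM) and Nr4a3, a relative of Nr4a1. Nr4a3 was at 0, 0 and 0.449 CPM in Ly6C-high and 23.4, 27.1, 14.4 and 16.0 CPM in Ly6C-low (log2 fold change -7.87, SE 0.93, adjusted p = 3.30e-05). Ets1 was called too (5.37 ± 2.62 against 179 ± 56.5 CPM), and it is also a gene of lymphocytes. Klf4 (-0.73, adjusted p = 0.000105), Klf2 (-0.53, adjusted p = 0.0117) and Cebpb (-0.68, adjusted p = 0.312) had a log2 fold change within 1 and were not called.

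Interferon response genes were called almost wholly on the Ly6C-high side. These genes are switched on by type I interferon through a complex that contains IRF9 and binds a sequence called the interferon-stimulated response element near the start site. Of 36 listed genes, 35 could be tested, 26 were called higher in Ly6C-high and 1 higher in Ly6C-low, with a median log2 fold change of 1.59. The summed level of the list was 3534 to 4756 CPM in Ly6C-high and 1354 to 1969 CPM in Ly6C-low. With unscaled library totals, 22 and 1 were called, and with the natural killer covariate 5, each higher in Ly6C-high. In that covariate fit the list median was 1.78, against 0.15 for all genes. By edgeR, 21 genes of the list had an unadjusted p under 0.05 there.

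The promoters of 4 of these genes are shown because they hold the core of the response element, which is GAAA, then 2 bases of any kind, then GAAA, or on the other strand TTTC, 2 bases and TTTC, and which stands in capitals. The sequences are RefSeq's for GRCm38.p6, on the strand of the gene, and are cut around the matches.
Ifit3 (chr19:34583328-34583461, + strand): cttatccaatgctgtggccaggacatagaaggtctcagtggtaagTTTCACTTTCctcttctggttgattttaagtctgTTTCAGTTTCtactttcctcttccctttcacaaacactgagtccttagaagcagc
Isg15 (chr4:156200830-156200941, - strand): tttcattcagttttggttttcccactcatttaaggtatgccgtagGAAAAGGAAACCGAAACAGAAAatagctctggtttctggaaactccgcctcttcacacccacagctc
Ifit1 (chr19:34640740-34640858, + strand): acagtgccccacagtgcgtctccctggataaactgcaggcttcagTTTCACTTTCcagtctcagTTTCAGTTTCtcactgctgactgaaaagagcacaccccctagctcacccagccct
Rsad2 (chr12:26456518-26456617, - strand): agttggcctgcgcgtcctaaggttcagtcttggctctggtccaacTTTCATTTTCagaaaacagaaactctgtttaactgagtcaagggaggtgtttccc
Isg15 had 3 overlapping matches, Ifit3 and Ifit1 had 2 each and Rsad2 had 1, and the nearest match lay 56 bases before the start site in Isg15, 75 in Ifit1, 110 in Rsad2 and 112 in Ifit3.

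In the 250 bases before the start site, 3.49% of all 26794 genes with a promoter sequence held the letters on either strand, and 3.39% of the tested protein-coding genes. Of the 27 tested interferon response genes with a promoter sequence, called or not, 13 held them (48.1%). Of the 21 of these that were called higher in Ly6C-high, 12 held them (57.1%). Ifit3 and Ifit3b, whose stretches around the matches have the same letters, are both among the 12. Of all genes called higher in Ly6C-high, 46 of 683 held them (6.73%), the 12 interferon response genes included. Of those called higher in Ly6C-low, 27 of 640 held them (4.22%). Of the classical identity genes with a promoter sequence, 0 of 19 held them. A match is a description of the letters and not evidence that a factor binds there, and the shares were not tested.

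Ifit3, an antiviral protein that binds other members of its family, was at 72.2, 90.8 and 107 CPM in Ly6C-high and 8.84, 7.06, 2.32 and 4.97 CPM in Ly6C-low (log2 fold change 3.92, SE 0.30, adjusted p = 1.19e-07). Isg15, a ubiquitin-like protein, was at 13.1, 16.7 and 19.1 CPM and 2.11, 1.29, 0.484 and 1.06 CPM (log2 fold change 3.74, SE 0.37, adjusted p = 4.81e-07). Rsad2, the antiviral enzyme viperin, was at 57.7, 70.5 and 81.6 CPM and 12.4, 11.9, 9.00 and 11.2 CPM (log2 fold change 2.64, SE 0.16, adjusted p = 1.11e-09). In all 3 genes the lowest Ly6C-high library lay above every Ly6C-low library. Ifit3 shares 31.7% of its 100-base words with its neighbour Ifit3b, so their counts cannot be fully told apart. Among the regulators, Irf7 was called (284 ± 17.5 against 101 ± 31.7 CPM, log2 fold change 1.49, SE 0.15, adjusted p = 4.70e-07), while Irf9 was not called (0.81). Ifitm1, an interferon-induced membrane protein, was the 1 member higher in Ly6C-low (3.64 ± 1.87 against 26.5 ± 5.78 CPM, -2.86). Cxcl10, a chemokine induced by interferon and on another list, was at 9.16, 10.4 and 12.1 CPM in Ly6C-high, while Ly6C-low had 1 count in 1 library and 0 in the other 3. The ratio was 1425 with a 95% counting interval from 256 to 56282.

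The same contrast in stressed mice rests on other libraries, 6 and 6 of SUS and 6 and 6 of RES mice. Of the interferon list, 22 of 34 tested genes were called higher in Ly6C-high in SUS mice and 27 of 34 in RES mice, with medians of 1.31 and 1.61. Of all genes, 11.2% and 9.49% were called higher in Ly6C-high in those mice. The CON, SUS and RES log2 fold changes were 3.92, 1.81 and 3.19 for Ifit3, and for Rsad2 2.64, 0.71 and 1.54. The difference between the contrasts did not pass the interaction test of edgeR for either gene (adjusted p = 0.262 and 0.192 for SUS, 0.823 and 0.573 for RES mice).

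**Figure D4:**
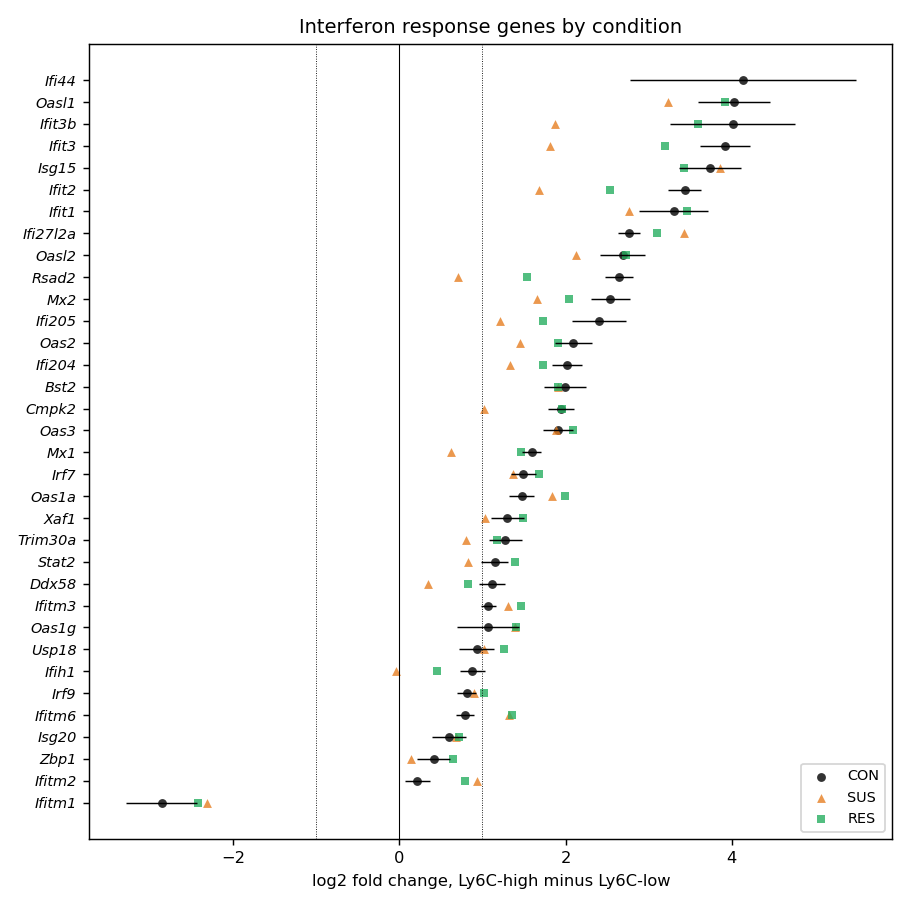
Log2 fold change (Ly6C-high minus Ly6C-low) of 34 interferon response genes in CON, SUS and RES mice, 1 point per condition, with the SE of the fit in CON mice as bars and dotted lines at 1 and -1. In CON mice 26 genes were called to the right and Ifitm1 to the left.

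Granule genes of the neutrophil and early myeloid kind were called on the Ly6C-high side. Of 18 listed genes, 12 were called, each higher in Ly6C-high, with a median log2 fold change of 7.02, or 6.49 with genes at 0 set to their lower bound. Limma's voom test called 7 of them, and the fit with the natural killer covariate called 4. In the covariate fit the list median was 6.92, and 11 genes had an unadjusted p under 0.05 by edgeR. Mmp8, Cd177 and Chil3 were steady over the Ly6C-high libraries, the highest at most 2.48 times the lowest. Other members varied strongly between them. Ltf, which encodes lactoferrin of secondary neutrophil granules, was at 78.3, 1.12, 18.3, 112, 78.7 and 74.6 CPM in Ly6C-high libraries 1, 4, 7, 10, 13 and 16 and had 0 counts in all 4 Ly6C-low libraries. It was at least 2738-fold higher in Ly6C-high, against a floor of 3 counts over the Ly6C-low group. Its call was lost with voom (adjusted p = 0.551) and with glmTreat, edgeR's test against a log2 fold change of 1 (0.0648).

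S100a9, a subunit of calprotectin and a common neutrophil marker, was at 69.8, 1.52, 19.7, 153, 60.7 and 68.8 CPM in the same libraries and at 0.612, 0, 0 and 0.0331 CPM in Ly6C-low. Ngp, a neutrophil granule protein, was at 154, 0.0281, 35.2, 259, 116 and 113 CPM and at 4.00, 1.78, 0.0323 and 1.62 CPM. The call of S100a9 was lost with voom (adjusted p = 0.599). Libraries 4 and 7 were lowest and library 10 highest in all 3 genes, and the Ngp groups overlapped. The call of Ngp (adjusted p = 0.0352) was lost without Ly6C-high library 1, 10, 13 or 16 and without any 1 of the Ly6C-low libraries (adjusted p from 0.0562 to 0.0971). Ltf, S100a9 and Ngp are among the 15 neutrophil markers, so the summed level of that list is no separate measure of them. The sum was 473 and 596 CPM in libraries 4 and 7 and 1225 CPM in library 10. Voom called 1 of the 11 tested neutrophil markers higher in Ly6C-high and 1 higher in Ly6C-low, against 7 and 0 with edgeR. The part of other cells in this pattern was not tested.

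The primary granule genes Mpo (7.28 ± 7.94 against 0.838 ± 1.66 CPM), Elane (4.48 ± 4.44 against 0.113 ± 0.226 CPM) and Prtn3 (2.50 ± 0.382 against 0.226 ± 0.430 CPM) were not called by edgeR in the 10 libraries. DESeq2 called Prtn3 (adjusted p = 0.00487) and Elane (0.0401), and Prtn3 was called too by voom (0.00554) and by edgeR with either other filter on low counts or all 34 libraries (0.0340 to 0.0430). All 3 were highest among Ly6C-low cells in library 29, and without that library all 3 were called by edgeR, with adjusted p from 0.000268 to 0.0185. Elane was also called without Ly6C-high library 4 (0.00974). Fcnb, a ficolin of myeloid cells, had 0 counts in Ly6C-low and was at least 326-fold higher in Ly6C-high. Cybb, the membrane subunit of the phagocyte oxidase, was abundant in both groups (2923 ± 216 against 1724 ± 119.6 CPM) and was not called. Of 17 tested S100 and annexin genes, 12 were called, each higher in Ly6C-high, with a median of 1.68. Outside the granule pair, S100a6, a calcium-binding regulator, was at 251 ± 29.1 against 49.7 ± 4.84 CPM, Anxa1, a mediator that limits inflammation, at 289.6 ± 32.4 against 80.1 ± 11.3 CPM and Anxa3 at 39.7 ± 8.41 against 5.35 ± 2.63 CPM.

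Sensing and uptake genes leaned to the Ly6C-high side. Of 35 pattern recognition genes, 10 were called, each higher in Ly6C-high, and unscaled library totals gave 7 and 1 in the other direction. Clec7a, the fungal glucan receptor dectin-1, was at 469, 487 and 549.9 CPM and 109.8, 117, 101 and 102 CPM (log2 fold change 2.22, SE 0.09, adjusted p = 4.26e-12). Clec5a, a receptor that signals through DAP12, was at 36.3 ± 5.08 against 0.638 ± 0.370 CPM, and Tlr5, the flagellin receptor, at 13.1 ± 6.27 against 1.19 ± 0.708 CPM. Cd14, the coreceptor for lipopolysaccharide, was at 16.5 ± 6.11 against 2.60 ± 1.31 CPM, while its signaling partner Tlr4 was not called (25.6 against 37.8 CPM, -0.56). Tlr2 (0.82) and Tlr8 (0.26) were not called either. Nlrp3, an inflammasome sensor, was called (153 ± 24.2 against 63.0 ± 10.4 CPM).

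Receptors for antibody were called in both directions within 1 family. Fcgr1, the high-affinity receptor for IgG, was at 83.0, 91.5 and 111 CPM in Ly6C-high and 16.9, 18.2, 19.4 and 28.5 CPM in Ly6C-low (log2 fold change 2.19, SE 0.16, adjusted p = 1.25e-08). Fcgr4 was the reverse, at 5.53, 7.73 and 11.3 CPM and 124, 209.8, 129.8 and 229 CPM (log2 fold change -4.44, SE 0.23, adjusted p = 4.44e-10). Neither gene overlapped between the groups. Fcgr3 was called higher in Ly6C-high (1.23), and the inhibitory receptor gene Fcgr2b was not called (0.45). Of 8 tested genes of this list, 2 were called in each direction.

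Of 27 tested lysosome genes, 11 were called higher in Ly6C-high and 2 higher in Ly6C-low, with a median of 0.85. Lyz2, lysozyme M and the gene with the highest level per length in Ly6C-high cells among those named here, was at 15262, 16654 and 18702 CPM and 4191, 4562, 3826 and 3555 CPM (log2 fold change 2.06, SE 0.09, adjusted p = 9.84e-12). Psap, the precursor of the saposins, was at 4958 ± 549 against 2342 ± 97.0 CPM and was called. Its call was lost with unscaled library totals and with glmTreat (adjusted p = 0.556). The growth factor precursor Grn (627 ± 85.8 against 227 ± 21.2 CPM) and Ctsc, the protease that activates granule proteases (571 ± 102 against 152 ± 19.8 CPM), were called too. Those higher in Ly6C-low were Ctsw and Cst7, which are also genes of cytotoxic lymphocytes. The cathepsin genes Ctsb (-0.51) and Ctsd (-0.47) and the macrophage marker Cd68 (-0.02) were not called.

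MHC class II genes leaned to the Ly6C-low side and differed between its libraries. Of 16 genes, 8 were called higher in Ly6C-low and 3 higher in Ly6C-high, and unscaled library totals gave 8 and 1. H2-Eb1, a class II beta chain, was at 28.4, 34.4 and 74.8 CPM in Ly6C-high and 535, 158, 660.2 and 267 CPM in Ly6C-low (log2 fold change -3.34, SE 0.45, adjusted p = 0.000629). H2-Ab1 was at 103, 123 and 222 CPM and 997, 346, 1212 and 501 CPM, and Cd74, the invariant chain, at 433, 550.4 and 649 CPM and 2259, 1414, 2809 and 1309 CPM. Libraries 21 and 29 were the highest in all 3 genes, and every Ly6C-low library still lay above every Ly6C-high library. The summed level of 10 dendritic cell markers was also highest in libraries 21 and 29, at 287 and 317 CPM, against 119 and 151 CPM in libraries 24 and 32. Zbtb46, a factor of conventional dendritic cells, was at 4.48, 6.15 and 12.9 CPM in Ly6C-high and 46.2, 22.1, 44.5 and 31.0 CPM in Ly6C-low. The part of dendritic cells in the class II difference was not tested. Cd83, a maturation marker that stabilizes class II on the surface, did not follow these libraries, at 2.99, 5.37 and 7.82 CPM and 118, 117, 113 and 112 CPM (log2 fold change -4.45, SE 0.21, adjusted p = 2.92e-11). With the natural killer covariate, 2 genes of this list were called higher in Ly6C-low. The list median was -1.80 there and -1.44 without the covariate.

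Receptors for chemoattractants leaned to the Ly6C-low side, with 9 of 24 tested called there and 3 in Ly6C-high. The Ly6C-high side held Ccr2 and Ccr1, a receptor for inflammatory chemokines (22.1 ± 5.59 against 2.74 ± 1.24 CPM). On the Ly6C-low side, S1pr5, a receptor for the egress lipid sphingosine-1-phosphate, was at 26.4, 34.6 and 45.8 CPM in Ly6C-high and 254, 309, 363 and 330.4 CPM in Ly6C-low (log2 fold change -3.17, SE 0.15, adjusted p = 3.05e-11). Fpr1 (2.59 ± 2.00 against 11.3 ± 5.16 CPM), Ccr7 (0.0191 ± 0.0148 against 5.53 ± 5.56 CPM) and S1pr1 (0.106 ± 0.127 against 8.16 ± 2.12 CPM) were called in the same direction, and T cells also carry the last pair. With the natural killer covariate, edgeR called 0 genes of this list, with 8 at an unadjusted p under 0.05. Of 26 adhesion genes, 7 were called higher in Ly6C-low, among them Itgal, the alpha chain of LFA-1 (773 ± 97.4 against 2519.7 ± 456 CPM), Ceacam1 (245 ± 23.9 against 654 ± 104 CPM) and Pecam1 (10.8 ± 1.75 against 61.1 ± 14.8 CPM). The 2 called higher in Ly6C-high, 7.69% of the list against 5.88% of all genes, included Itga5, a chain of the fibronectin receptor (145 ± 27.8 against 57.7 ± 4.12 CPM). The P-selectin ligand gene Selplg (0.24) and Itga4 (-0.46) were not called.

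Growth factor and cytokine receptors were called in both directions. Csf1r, the receptor on which monocytes depend, was at 1338, 1547 and 1863 CPM and 1734, 2181, 1917 and 1961 CPM and was not called (-0.29, adjusted p = 0.034). Csf3r (0.84) and Il17ra (-0.02) were not called, and Tgfbr1, a receptor for TGF-beta, was called higher in Ly6C-low (115 ± 36.1 against 398 ± 23.8 CPM). Of 28 tested receptor genes, 2 were called higher in Ly6C-high and 3 higher in Ly6C-low, shares of 7.14% and 10.7% against 5.88% and 5.98% of all genes.

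Cytokine genes were called on both sides. Of 30 tested, 7 were called higher in Ly6C-high and 8 higher in Ly6C-low. Tnf was at 7.61, 15.9 and 20.1 CPM in Ly6C-high and 62.8, 74.3, 53.2 and 64.3 CPM in Ly6C-low (log2 fold change -2.11, SE 0.23, adjusted p = 1.70e-06), in the same direction as Il1b. The chemokine genes Ccl6 (927 ± 68.9 against 264 ± 36.5 CPM) and Ccl9 (611 ± 45.5 against 116 ± 10.1 CPM) were called higher in Ly6C-high and had the highest levels of the list in those cells. Ccl2, the ligand of CCR2, was low in both groups, with 1.85, 2.76 and 5.18 CPM in Ly6C-high and 0, 0, 0 and 0.364 CPM in Ly6C-low (5.14). Pdgfb, a growth factor for pericytes, was called higher in Ly6C-low (10.7 ± 3.67 against 81.5 ± 9.65 CPM). Ccl5 was called higher in Ly6C-low (3.94 ± 4.73 against 180.3 ± 95.5 CPM) and is one of the 15 natural killer markers.

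Complement and coagulation genes were called on both sides too. C3, the central complement component, was at 1478, 1609.9 and 1867 CPM in Ly6C-high and 192, 231, 166 and 213 CPM in Ly6C-low (log2 fold change 3.03, SE 0.11, adjusted p = 9.53e-13), and Cfp, properdin, was called in the same direction (66.2 ± 16.2 against 19.5 ± 4.42 CPM). C1qa, C1qb and C1qc, the chains of C1q, were called higher in Ly6C-low at low levels (0.316 against 4.13 CPM, 0.882 against 6.57 CPM and 0.436 against 5.74 CPM), and all 3 calls were lost without Ly6C-low library 29 (adjusted p from 0.0731 to 0.414). That of C1qa (adjusted p = 0.048) was lost without any of 5 other libraries too, and voom called C1qb alone. Of 16 tested complement genes, 3 were called higher in Ly6C-high and 6 higher in Ly6C-low, or 3 without library 29. Of 18 tested genes on the coagulation list, 7 were called higher in Ly6C-high and 4 higher in Ly6C-low. The first included F13a1 and Plau, urokinase (15.0 ± 1.98 against 3.14 ± 1.24 CPM). The second included F2r, the thrombin receptor (0.134 ± 0.102 against 9.84 ± 4.96 CPM), and Tfrc, the transferrin receptor, which is no coagulation gene.

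Matrix proteases were called in 5 of 15 tested genes higher in Ly6C-high and in 2 higher in Ly6C-low. Besides Mmp8, Mmp19 (18.4 ± 4.22 against 0.979 ± 0.498 CPM) and Adam19 (70.2 ± 22.3 against 20.7 ± 12.8 CPM) were higher in Ly6C-high. The 2 members higher in Ly6C-low had mean levels near 0 in Ly6C-high.

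Lipid handling genes were called on both sides. Lpl, lipoprotein lipase, was at 80.2, 337 and 477 CPM in Ly6C-high and 19.0, 11.8, 11.4 and 5.40 CPM in Ly6C-low (log2 fold change 4.65, SE 0.63, adjusted p = 0.000657), and the scavenger receptor gene Msr1 was called in the same direction (182 ± 39.9 against 27.4 ± 7.75 CPM), as was Axl, a receptor for apoptotic cells (84.2 ± 9.88 against 14.1 ± 6.05 CPM). Cd36, Fabp4, Pparg and Nr1h3, the oxysterol receptor LXR-alpha (6.04 ± 3.80 against 24.8 ± 5.88 CPM), were called higher in Ly6C-low. Apoe was abundant in both groups and not called (1423 against 2229 CPM, -0.65). Of 26 tested genes, 5 were called higher in Ly6C-high and 7 higher in Ly6C-low. Of 29 iron and redox genes, 9 were called higher in Ly6C-high and 2 higher in Ly6C-low, with Prdx5, a peroxiredoxin (321 ± 49.7 against 71.8 ± 9.81 CPM), and Gpx4, which reduces lipid peroxides (103 ± 31.3 against 32.5 ± 3.87 CPM), among the first and Hmox1 not called (-0.13).

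Of 26 glycolysis genes, 4 were called higher in Ly6C-high and 3 higher in Ly6C-low, and 1 and 3 with unscaled library totals. The groups did not overlap for 11 of the 26 with Ly6C-high above and 3 with Ly6C-low above, against 10.7% and 10.2% of all genes. The contrast in other libraries gave 9 and 2 calls of 25 in SUS mice, where 11.2% and 10.5% of all genes were called. In RES mice it gave 6 and 2 calls of 25, where 9.49% and 10.2% of all genes were called. Ldhb was at 11.5, 25.5 and 32.3 CPM in Ly6C-high and 0.389, 0.748, 0.129 and 2.25 CPM in Ly6C-low, while Ldha was at 118 ± 11.6 against 133 ± 26.1 CPM and was not called. Eno3 was at 3.26, 15.0 and 18.1 CPM and 179, 265, 232 and 230.0 CPM, and Slc2a3, a glucose transporter, was called higher in Ly6C-low (6.48 ± 2.52 against 33.1 ± 5.63 CPM).

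Genes for glucocorticoid and adrenergic signals are of interest because the study concerns stress. Of 18 tested, 4 were called, each higher in Ly6C-low. Adrb1, the beta-1 adrenergic receptor, was at 0, 0 and 0.396 CPM in Ly6C-high and 31.8, 15.3, 21.7 and 30.9 CPM in Ly6C-low (log2 fold change -7.51, SE 0.93, adjusted p = 9.24e-05). Hsd11b1, the enzyme that regenerates active glucocorticoid, was at 1.65, 5.22 and 10.8 CPM and 52.4, 53.2, 39.5 and 38.5 CPM (log2 fold change -3.04, SE 0.39, adjusted p = 3.25e-05). Nr3c1, the glucocorticoid receptor, was not called (178 against 235 CPM, -0.40). The other 2 called genes were Zbtb16 (-1.63) and the phosphodiesterase gene Pde4b (-1.11).

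Several survival genes of the BCL2 family were called higher in Ly6C-low. Bcl2, which blocks mitochondrial cell death, was at 5.75, 10.2 and 15.6 CPM in Ly6C-high and 138, 124, 142 and 128 CPM in Ly6C-low (log2 fold change -3.61, SE 0.22, adjusted p = 9.37e-10). T cell libraries of CON mice had 176 CPM of it, and with the natural killer covariate its log2 fold change was -1.68 (adjusted p = 0.379). Bcl2a1d was at 3.89 ± 0.679 against 62.2 ± 8.45 CPM, and it shares 41.0% of its 100-base words with Bcl2a1a, so these copies cannot be fully told apart. Mcl1 was abundant in both groups and not called (1163 against 955 CPM, 0.28). Bcl2l11, which encodes the death inducer BIM, was called higher in Ly6C-high (79.5 ± 5.00 against 32.1 ± 1.84 CPM), as was the death receptor gene Fas (22.9 ± 2.82 against 9.07 ± 1.78 CPM). Of 21 genes, 3 were called higher in Ly6C-high and 5 higher in Ly6C-low, the latter with Pmaip1, which encodes the death inducer NOXA (43.8 ± 9.69 against 104 ± 9.95 CPM).

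Of 34 cell cycle genes, 2 were called higher in Ly6C-high and 6 higher in Ly6C-low, shares of 5.88% and 17.6% against 5.88% and 5.98% of all genes. The list median was 0.14, on the Ly6C-high side. DESeq2 called 5 and 6, and the fit with the natural killer covariate 0 and 1. The lean of the calls to Ly6C-low was not seen in other libraries, where the counts were small. In SUS mice 5 and 1 of 33 were called, against 11.2% and 10.5% of all genes. In RES mice 3 and 2 of 33 were called, against 9.49% and 10.2% of all genes. Mki67, the proliferation antigen, was at 35.8, 71.1 and 94.6 CPM and 66.2, 60.4, 72.4 and 82.0 CPM, and its groups overlapped. The replication licensing genes Mcm5 (7.72 ± 3.33 against 34.7 ± 2.74 CPM), Mcm6 (11.7 ± 2.86 against 37.4 ± 7.20 CPM) and Mcm2 (6.81 ± 1.41 against 18.5 ± 2.42 CPM) were called higher in Ly6C-low. Of 18 tested cell cycle regulators, 1 was called higher in Ly6C-high and 2 higher in Ly6C-low, shares of 5.56% and 11.1%. Among the latter, Ccnd2, cyclin D2, was at 0.226, 2.13 and 10.2 CPM in Ly6C-high and 153, 199, 128 and 160.0 CPM in Ly6C-low (log2 fold change -5.66, SE 0.83, adjusted p = 0.00112). Its highest Ly6C-high value was in library 7, which also had the highest natural killer marker sum of Ly6C-high libraries, and T cell libraries of CON mice had 456 CPM of it.

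Inhibitory and activating surface receptors of paired families were called on both sides. Of 26 tested genes of the CD300, LILR, SIRP, TREM and SIGLEC families, 6 were called higher in Ly6C-high and 7 higher in Ly6C-low. Cd33 (98.1 ± 11.9 against 15.1 ± 4.34 CPM), Trem2 (19.0 ± 4.95 against 3.24 ± 1.81 CPM) and Pira2 (47.6 ± 7.42 against 10.7 ± 1.27 CPM) were higher in Ly6C-high. Cd300e, Treml4 and Cd300ld (64.9 ± 7.44 against 527 ± 66.0 CPM) were higher in Ly6C-low. Sirpa, the receptor for the signal CD47, was not called (1084 against 902 CPM, 0.27). Of 19 tested ectoenzyme and purinergic genes, 1 was called higher in Ly6C-high, Bst1 (27.1 ± 5.90 against 3.42 ± 1.38 CPM), and 7 higher in Ly6C-low, with Ace and Cd38, an enzyme that consumes NAD (0.0790 ± 0.117 against 3.30 ± 2.28 CPM), among them. Of 30 immediate early and NF-kB genes, 3 were called higher in Ly6C-high and 6 higher in Ly6C-low, with Dusp5 (13.2 ± 4.44 against 164 ± 37.5 CPM) and Socs3, a brake on cytokine signals (38.7 ± 10.1 against 125 ± 45.2 CPM), among the latter.

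**Figure D5:**
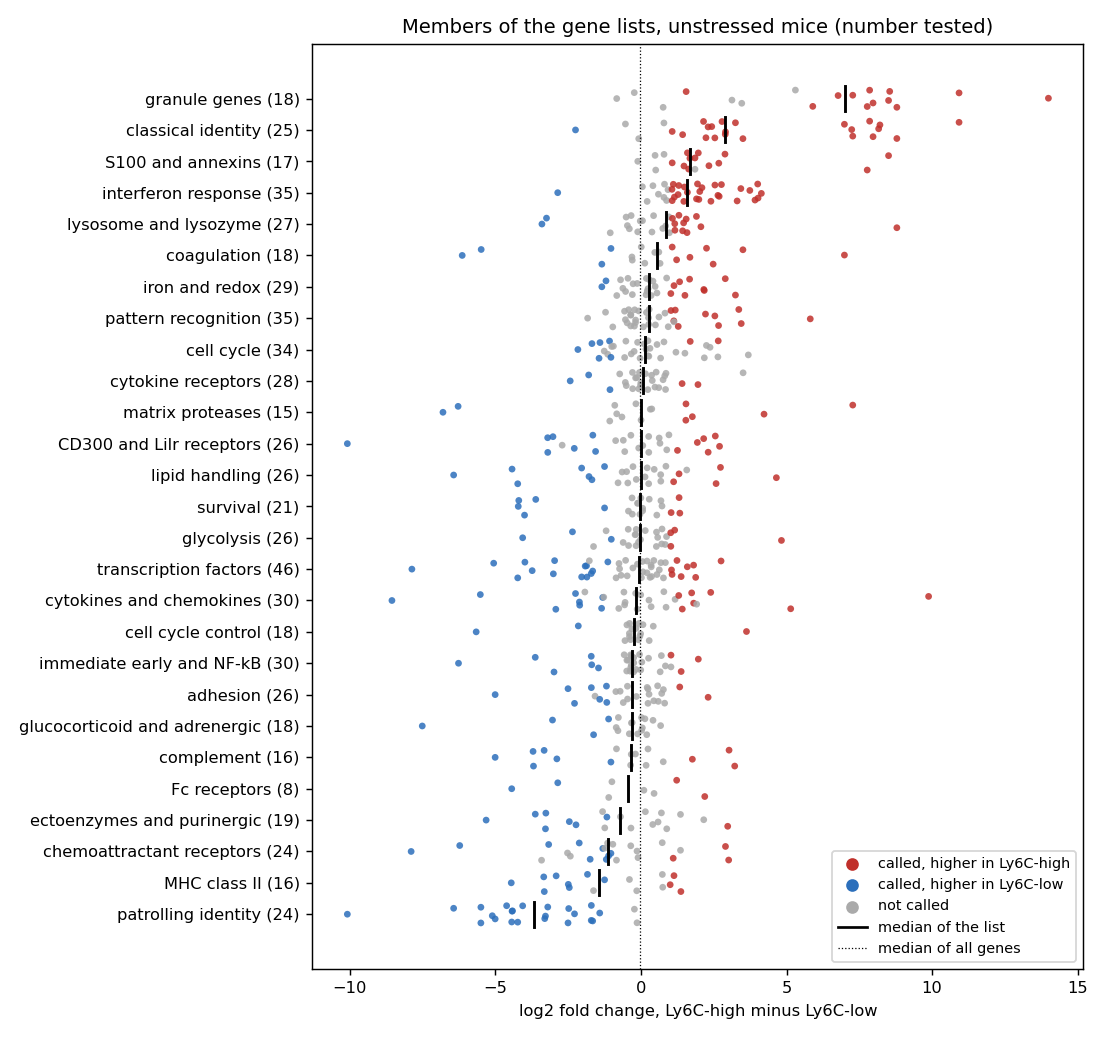
Log2 fold change (Ly6C-high minus Ly6C-low) of every tested gene in each list, 1 point per gene, with the list median as a line and the median of all genes, -0.05, as a dotted line. The medians run from -3.68 for patrolling identity to 7.02 for granule genes among the monocyte lists.

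By level per length (CPM per kb of exons), the largest differences between the group means among called protein-coding genes were those of abundant genes. On this scale Lyz2 was at 12766 against 3065 in Ly6C-high and Ly6C-low, Chil3 at 1099.8 against 4.35 and Fn1 at 1023 against 3.46, while Cd74 was at 325 against 1159.9 and Ace at 58.2 against 565. Ahnak, a giant scaffold protein (11744 ± 552 against 3999 ± 265 CPM), Vim, vimentin (2819.9 ± 267 against 711 ± 105 CPM), Mpeg1, the pore-forming perforin-2 (3363 ± 121 against 1133 ± 58.3 CPM), and the ribosomal stalk gene Rplp0 (1322 ± 163 against 500.2 ± 67.7 CPM) were further genes of the Ly6C-high side by this rule. Ribosomal protein genes as a list were added after their values were seen. Of 81 tested, 38 were called, each higher in Ly6C-high, with a median of 0.94, and unscaled library totals called 10 and the natural killer covariate 1. The 13 protein genes of the mitochondrial genome were likewise listed afterwards, and 3 were called, each higher in Ly6C-high, with a median of 0.72. DESeq2, RLE factors and upper quartile factors gave 1 call each, and voom and unscaled library totals gave 0, with 12 at an unadjusted p under 0.05 by edgeR with TMM. The share of mitochondrial counts was higher in the same libraries, and its part in this was not tested.

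By fold alone, among called protein-coding genes without overlap, the far ends held genes with 0 counts in 1 group. Cgnl1, a protein of cell junctions, was at 10.4, 26.9 and 75.8 CPM in Ly6C-high and had 0 counts in Ly6C-low, so it was at least 1457-fold higher in Ly6C-high. Tfec, a relative of the lysosomal factor TFEB, had 1 count in Ly6C-low and 8.79 CPM in Ly6C-high, a ratio of 1195 with a 95% counting interval from 215 to 47216. Cpne7, a copine, had 0 counts in Ly6C-high and 7.48, 11.0, 3.32 and 8.22 CPM in Ly6C-low, at least 504-fold higher in Ly6C-low. Apol7c and Kcnq5 were at least 303-fold and 288-fold higher in Ly6C-low. Pdcd1lg2, the checkpoint ligand PD-L2, was at 0.0355 ± 0.0870 against 23.1 ± 4.12 CPM.

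Outside protein-coding genes, the directions were unequal. Of 1448 processed pseudogenes tested, 103 were called higher in Ly6C-high (7.11%) and 13 higher in Ly6C-low (0.898%). Reads on them can be shared with their parent genes. Of 894 antisense genes, 13 (1.45%) and 45 (5.03%) were called, and of 559 lincRNA genes 14 (2.50%) and 34 (6.08%). The shares of all genes were 5.88% and 5.98%, and in each class the side with fewer calls lay below its share. Gene segments of antigen receptors were called on the Ly6C-low side, such as Trbc1, with 2 counts in Ly6C-high and 11.8 CPM in Ly6C-low, a ratio of 1194 with a 95% counting interval from 331 to 9863, and Trdv4, at least 271-fold higher in Ly6C-low. Igha, the constant region of IgA, was at 45.8, 46.6, 22.8 and 466 CPM in Ly6C-low and at most 0.674 CPM in Ly6C-high, and its call was lost with voom (adjusted p = 0.301) and without Ly6C-high library 4 (0.0556).

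The contrast was of the same kind in the stressed mice. In SUS mice 11.2% of 16569 genes were called higher in Ly6C-high and 10.5% higher in Ly6C-low, and in RES mice 9.49% and 10.2% of 16430, each with 6 against 6 libraries. Of the 2096 genes called in CON mice, 1646 were also called in the same direction in SUS mice, 78.5% of the CON list and 45.7% of the SUS list. In RES mice it was 1688, 80.5% of the CON list and 52.1% of the RES list. No gene called in CON mice was called in the opposite direction in either condition, and 1521 genes were called in all 3. For Ccr2 the log2 fold changes of CON, SUS and RES mice were 2.90, 3.18 and 2.80, and for Cd300e -10.08, -9.63 and -9.42. For Mmp8 they were 7.27, 7.37 and 7.99, and for Chil3 7.97, 6.80 and 6.96. The interaction test of edgeR called none of these 4 genes.

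Whether the contrast itself differed from CON mice was tested by an interaction term over 34 libraries and 21178 genes. In SUS mice 2 genes passed at an adjusted p under 0.05 (0.00944%), with 2844 genes at an unadjusted p under 0.05 (13.4%). DESeq2 called 271 there, of only 5539 genes to which it gave an adjusted p. L1cam, an adhesion molecule, was at 45.1 ± 3.96 CPM in Ly6C-high and 328 ± 51.2 CPM in Ly6C-low of CON mice and at 21.5 ± 6.35 and 350.4 ± 70.5 CPM in SUS mice, scaled over the 34 libraries (interaction -1.20, adjusted p = 0.0406). Eif3l, a subunit of translation initiation factor 3, was at 99.3 ± 10.00 and 71.5 ± 5.24 CPM in CON mice and at 174 ± 26.0 and 65.1 ± 9.72 CPM in SUS mice (interaction 0.92, adjusted p = 0.0406). In RES mice 0 genes passed with edgeR, 2164 had an unadjusted p under 0.05 (10.2%), and DESeq2 called 76 of 21981.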

How the data were processed

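Libraries were made from sorted leukocytes of mouse blood and sequenced as paired reads. Per the study's methods, the authors mapped reads to mm10 with HISAT2 and deposited raw read counts per Ensembl gene from htseq-count, 1 column per library. The strand option and the treatment of multimapping and duplicate reads are not given in the sources used here. The table held 52636 genes. Symbols, types, exon lengths and positions came from GENCODE for GRCm38, which matched 52489.

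Counts were tested with edgeR 4.0.16 (filterByExpr, TMM factors, robust quasi-likelihood test) in R 4.3.3, within the 10 CON libraries, and for the stressed mice in their own 12 libraries each. Interactions were fitted over all 34 monocyte libraries. DESeq2 1.42.0 and limma 3.58.1 (voom) were alternatives. Other alternatives were the scaling, the filter on low counts, the libraries in the fit, the thresholds, thinning to equal depth and leaving out each library. Whole-library measures were compared by exact permutation over libraries with Python 3.11.15. In a simulation of the CON comparison with 16827 genes, 62 of 100 genes changed by 1.5 on the log2 scale and 90 of 100 changed by 3 were called, with 4 unchanged genes called. In a simulation of the SUS interaction with 20221 genes, 43 and 75 of 100 were called, with 5 unchanged genes. There the SUS Ly6C-high libraries alone were changed, and calls were by adjusted p alone. The changed genes of both simulations had a mean of at least 50 counts, so the rates do not hold for genes with fewer.

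The gene lists and the comparison were chosen with earlier results of these data known. Named genes were list members (up to 5 a direction by fold among those called, textbook genes, and members not called), called protein-coding genes with the largest fold (mean of at least 50 counts, no overlap between groups) or the largest difference per length, extreme genes of other types, and genes passing the interaction test. The natural killer covariate and the ribosomal and mitochondrial gene lists were added after seeing the data. A few list members are counted in their lists but not reported here by name. All 45 pairs of CON libraries differed. The labels do not say that libraries came from separate animals, so p-values measure the spread between libraries only. Floors of 3 counts and ratio intervals (exact, 95%) cover counting error only.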

Additional observations from a re-analysis of the deposited data

Results flagged for a closer look

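Single libraries stood apart from the others of their group in 26 of 384 sets of values checked by Dixon's gap test, over 174 named genes, the marker sums and the library measures, and chance flags about 1 in 20 groups. Among Ly6C-low libraries, library 29 was the highest in Cebpa (75.7 CPM), Mpo (3.32 CPM), Elane (0.452 CPM), Prtn3 (0.871 CPM) and the share of counts on the 100 highest genes (29.8%). Library 24 was the highest in Itgam (275 CPM), Tfec (0.0258 CPM) and the summed platelet markers (35.0 CPM), and the lowest on the second principal component (-3.89). Library 32 was the highest in Cxcl10 (0.0331 CPM), Ccl2 (0.364 CPM) and Igha (466 CPM), and library 21 in S100a9 (0.612 CPM). The values for Tfec and Cxcl10 are 1 count each.

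Among Ly6C-high libraries, library 7 was the highest in Fabp4 (3.17 CPM), H2-Eb1 (74.8 CPM), Ccl5 (12.9 CPM), Ccnd2 (10.2 CPM) and Pdcd1lg2 (0.213 CPM), 5 genes that were all called higher in Ly6C-low. It also had the highest natural killer marker sum of the Ly6C-high libraries. Library 10 was the highest in Thy1 (3.71 CPM) and Cst7 (3.48 CPM) and the lowest on the second principal component (-52.0). Library 4 was the highest in Nr4a3 (0.449 CPM) and Igha (0.674 CPM) and the lowest in Eno3 (3.26 CPM). Library 13 was the highest in Irf8 (527 CPM) and library 1 in the summed basophil markers (6.40 CPM).

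The contrast of Ly6C-high and Ly6C-low differed between SUS and CON mice by the interaction test of edgeR for L1cam (-1.20 on the log2 scale) and Eif3l (0.92).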

How the results depend on the processing

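The 2096 genes called in CON mice became 2062 to 2739 under DESeq2, voom, other scalings, filters, depth and a fit of all 34 libraries, and 1902 to 2160 without each library in turn. Other thresholds moved the count more, to 954 with glmTreat, 953 with an absolute log2 fold change above 2 and 4193 by adjusted p alone. With the natural killer covariate it was 462. For the interaction, DESeq2 called 271 genes in SUS and 76 in RES mice against 2 and 0 with edgeR. With a size above 1 as well it was 54 and 74 against 1 and 0. DESeq2 gave an adjusted p to 5539 genes in SUS and 21981 in RES mice, so its 2 counts have unlike totals. The 174 named genes include some, such as Itgam and Mbp, that edgeR did not call in the 10 libraries and that had no call to lose. Of the 174, 77 lost their call with the natural killer covariate and 3 changed sign, Ncr1 (2.30), Cd247 (0.75) and Ccl5 (1.33). None of these 3 was past the threshold. Ncr1 and Ccl5 are members of the list from which the covariate was made, so that fit is no test for them. The cause of the other changes was not tested.

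The difference in the mitochondrial share was 5.06 to 5.66 percentage points without each library in turn and that of the 100 highest genes 5.99 to 8.62. The number of genes with at least 1 CPM was lower in Ly6C-high by 1047 to 1217.

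No paired analysis was possible because the library numbers in the labels run through the series and none is shared between groups. With 4 Ly6C-low libraries, a call can rest on 1 library, as for the C1q genes, and genes with few counts have wide errors. Whether mice gave libraries to both groups is not given in the labels, and the natural killer markers cannot be separated from the cell type in any library.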
